A study of Mus musculus with 127 samples.

Results

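The ubiquitin-conjugating enzymes, or E2 enzymes, are described here in single mouse striatal neurons and astrocytes. Their genes were taken by name: every protein-coding row of the count table whose mouse symbol begins with Ube2, which gave 37 genes of 53465 rows. A further 6 rows with such a symbol were left out, 5 pseudogenes (among them Ube2d4, a pseudogene in the mouse) and 1 antisense gene. Of the 37 genes, 33 had a count in enough cells to be tested, and Ube2d2b, Ube2dnl1, Ube2dnl2 and Ube2u did not. Ube2cbp is a member by its older symbol only: it is now called Ube3d and encodes a ligase-type protein that binds an E2.

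Ubiquitin is passed along a relay. An E1 enzyme activates it, an E2 takes it over on a cysteine in its active site, and an E3 ligase brings the loaded E2 to the substrate. The E2 often sets what is built: chains joined through one lysine of ubiquitin send proteins to the proteasome, and chains joined through another serve in signalling and repair. Some members carry relatives of ubiquitin instead, among them NEDD8 and ISG15. In Huntington's disease the expanded huntingtin fragment collects in inclusions that stain for ubiquitin.

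The series compared striatal neurons of newborn wild-type C57BL/6 mice (P0 to P1) that a lentivirus had made to express exon 1 of human HTT fused to GFP, with a tract of 25 glutamines (25Q) or an expanded one of 97 (97Q). Neurons of either kind were given RGFP109, which blocks histone deacetylases 1 and 3, at 100 nM from day 6 in vitro (DIV 6) and every 3 days thereafter, or only the solvent DMSO, called vehicle here. All neurons grew one by one on small islands of cortical astrocytes from mice of the same age, were recorded with a patch pipette at DIV 15, and were then drawn into it for sequencing. The 4 transgene groups held 29 cells (25Q vehicle), 26 (97Q vehicle), 23 (25Q RGFP109) and 26 (97Q RGFP109), and there were 9 neurons infected with an empty vector and 14 astrocytes.

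A sample here is a single cell. Its labels state a batch but neither the mouse nor the dish it came from. Counts of the cells of a group in a batch were added up, which gave 12 sums for the transgene groups (3 batches each) with 8665881 to 76217208 counts. The p-values measure only the spread between these sums, which may be technical. Empty vector neurons and astrocytes were sequenced in batch 3 alone, 1 sum each, so nothing about them was tested. Astrocyte markers (9 genes) summed to 7482 CPM (a gene's count scaled to the same library total in every sum) in the astrocytes and to 68 to 475.1 CPM in the 13 neuron sums, and pan-neuronal markers (7 genes) to 482.1 CPM in the astrocytes and 3442 to 7879 CPM in the neurons. Of the 113 neurons, 11 held more than 10% of the median astrocyte's marker level and are called rich in glial RNA. The sums of batch 2 rest on 3 or 4 cells, and in 93 of the 122 member values above 0 in that batch 1 cell gave more than 50% of the counts, against 23 of 135 in batch 1 and 19 of 137 in batch 3.

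The coding stretch around the active-site cysteine shows how close Ube2e3 is to other E and D members. The 5 stretches of 60 bases below come from the principal GENCODE M21 transcripts on GRCm38, are read along the coding strand, and carry the cysteine codon in capitals. It is codon 131 in Ube2e1, 139 in Ube2e2, 145 in Ube2e3 and 85 in Ube2d1 and Ube2d3.
Ube2e1, chr14:18284338-18284397, minus strand: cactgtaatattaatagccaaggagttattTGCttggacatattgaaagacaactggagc
Ube2e2, chr14:18586915-18586974, minus strand: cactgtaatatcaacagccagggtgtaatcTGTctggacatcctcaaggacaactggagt
Ube2e3, chr2:78918711-78918770, plus strand: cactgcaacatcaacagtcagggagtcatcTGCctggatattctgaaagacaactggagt
Ube2d1, chr10:71258223-71258282, minus strand: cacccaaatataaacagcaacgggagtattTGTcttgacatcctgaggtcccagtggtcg
Ube2d3, chr3:135459999-135460058, plus strand: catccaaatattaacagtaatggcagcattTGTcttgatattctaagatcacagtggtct
Within these windows Ube2e3 differed from Ube2e2 at 10 of the 60 bases, from Ube2e1 at 13 and from Ube2d3 at 23. Over the aligned coding sequence the identity was 77.5% between Ube2e2 and Ube2e3, 74.8% between Ube2e1 and Ube2e3 and 61% between Ube2d3 and Ube2e3. Sequence shared with other genes was rare for Ube2e3: 0.437% of its 50-base words also occurred in another annotated gene, and the gene sharing most with it was Gm7554, not a relative listed here.

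Most E2 genes were detected in most neurons. The median cell had a count in 28 or 29 of the 37 members in the transgene groups, in 31 in empty vector neurons and in 27 in astrocytes. To compare genes with each other, CPM was divided by the summed exon length in kilobases. On that scale Ube2b stood highest, with a mean of 160.4 CPM per kilobase ± 41.99 (SD, n = 12 sums), which was 26.4% of the summed per-length level of all 37 genes and the 98.3rd percentile of the genes tested. Ube2b (also called Rad6b) and its X-linked relative Ube2a ubiquitinate histone H2B and the sliding clamp of DNA replication.

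Ube2w followed with 52.9 CPM per kilobase ± 16.3, and Ube2a with 52.3 ± 23.0. Ube2n, the catalytic partner for K63-linked chains, reached 38.8 CPM per kilobase ± 12.4, Ube2l3, which serves HECT and RBR ligases such as parkin, 25.6 ± 10.1, and Ube2e3 24.1 ± 12.3. Ube2b lay above every other member in its mean by more than their SDs. The neighbours Ube2w and Ube2a, and Ube2l3 and Ube2e3, differed by less than their SDs.

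The bottom of the order held the members of cell division and those with few counts. Per kilobase, Ube2c, which acts with the anaphase-promoting complex, had a mean of 1.12 CPM, Ube2t, of the Fanconi anaemia repair pathway, 0.615, Ube2v1, the inactive partner of Ube2n, 0.456, and Ube2s, which extends chains on the anaphase-promoting complex, 0.271. Ube2u had 0.289, Ube2d2b 0.109 and Ube2dnl1 0.00489, from 3 counts in all, and Ube2dnl2 had no count in any sum. The order depends on the gene length used: with the length of the principal transcript alone Ube2w (543 bases) led with 480.0 CPM per kilobase, Ube2d3 moved from rank 16 to rank 3 with 78.2, and 4 of the 6 highest members were the same.

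**Figure D1:**
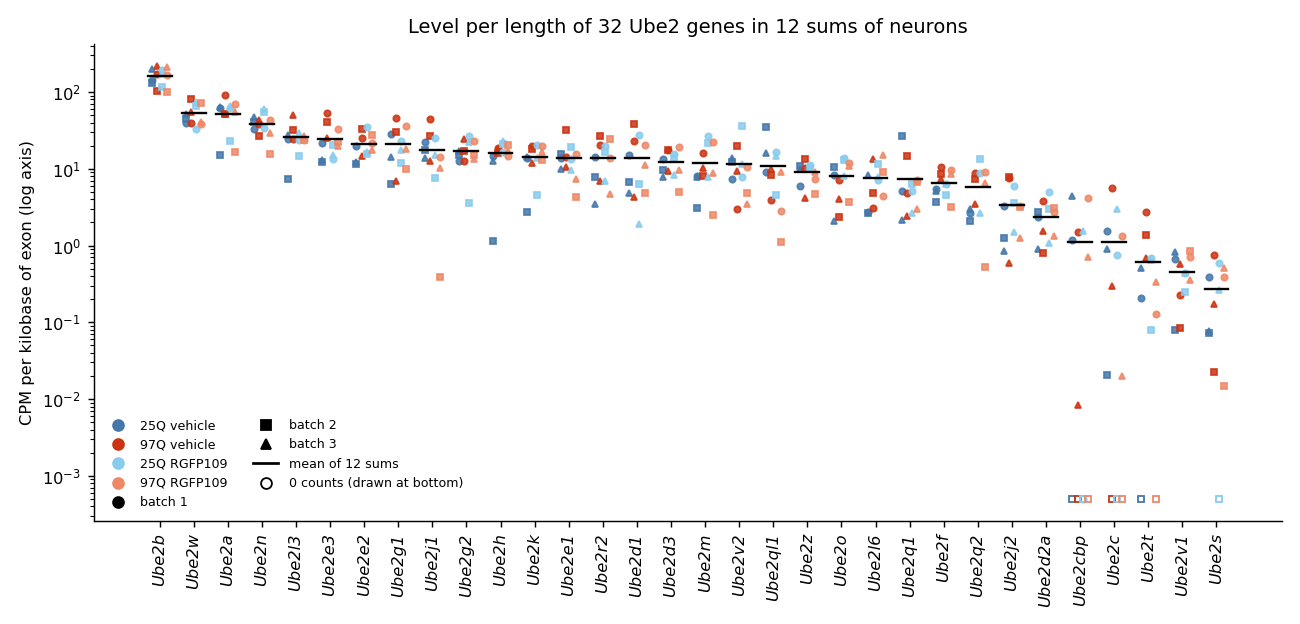
Level of 32 of the 33 tested Ube2 genes in CPM per kilobase of exon (log axis) in the 12 sums of the 4 transgene groups, with colour for group, shape for batch, a bar for the mean of the 12 sums and open symbols for sums with 0 counts. Ube2b stands highest with a mean of 160.4, the means of the next members run from 52.9 (Ube2w) down to 2.36 (Ube2d2a), and Ube2cbp, Ube2c, Ube2t, Ube2v1 and Ube2s lie lowest.

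The first comparison asked what the expanded tract changed under vehicle. No E2 gene passed the threshold of adjusted p 0.05 (edgeR's quasi-likelihood test, adjusted by Benjamini-Hochberg over 15091 genes), and no gene at all did (0.0%). At an unadjusted p under 0.05 there were 2 members of 33, Ube2e3 and Ube2t, both higher in 97Q, where 3.96% of all genes were at that level, 1.5% higher and 2.46% lower. By DESeq2 1 member, Ube2e3, passed the adjusted threshold, as did 1.41% of all genes, and by limma-voom none did (0.0%). The estimates leaned upward: 22 of 33 log2 differences were above 0, against 52.4% of all genes, 11 were below 0, against 47.6%, and their median was 0.46, against 0.06 over all genes. Batch by batch the median over members was 0.49, 0.84 and 0.14.

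Ube2e3 was the member that differed most clearly. This E2 takes part in importin-mediated transport into the nucleus and in the control of the antioxidant factor Nrf2. In batches 1, 2 and 3 it stood at 231.1, 177.9 and 109.7 CPM in 97Q vehicle sums and at 96.4, 53.7 and 57.6 CPM in 25Q vehicle sums. All 97Q sums lay above all 25Q sums, and each batch showed the same direction, by 1.25, 1.71 and 0.92 on the log2(CPM + 1) scale. The fitted log2 difference was 1.26 (SE 0.343), a 2.39-fold higher level, with an unadjusted p of 0.00454 (rank 29 of the genes tested) and an adjusted p of 0.969 by edgeR. DESeq2 gave 1.21 (SE 0.346) with an adjusted p of 0.0387, and the other alternatives gave adjusted p-values from 0.732 to 1.00.

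Single cells showed the same order. The median 97Q vehicle neuron had 153.6 CPM of Ube2e3 and the median 25Q vehicle neuron 56.2 CPM, with ranges of 3.18 to 316.6 and 0.222 to 409.6 that overlapped widely. Without the 10 glial-rich neurons of the transgene groups the fitted log2 difference was 1.26. On the log2(CPM + 1) scale the mean difference over batches was 1.29, and 1.79 without the cell richest in Ube2e3 in each sum. Most of that rise came from batch 2, which rests on few cells (from 1.71 to 2.75). Batches 1 and 3 went from 1.25 to 1.60 and from 0.92 to 1.02. Under RGFP109 the levels were 143.5, 96.7 and 87.4 CPM in 97Q and 58.5, 89.6 and 66.99 CPM in 25Q, where the groups overlapped. In batch 3 empty vector neurons stood at 97.4 CPM, between 25Q vehicle (57.6 CPM) and 97Q vehicle (109.7 CPM), and astrocytes at 60.6 CPM.

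The tested D and E enzymes, Ube2l3 and Ube2w, which work with many RING and RBR ligases, all had estimates above 0. These were 8 of 8 tested genes with Ube2e3 itself among them (median log2 difference 0.57). Over all genes 52.4% of estimates were above 0, the share to set beside this group and those below. None of the 8 but Ube2e3 had an unadjusted p under 0.05 by edgeR. Ube2e2 stood at 117.2, 154.5 and 67.5 CPM in 97Q vehicle and at 91.7, 53.99 and 56.6 CPM in 25Q vehicle (log2 difference 0.67, SE 0.408). Its groups overlapped, since the lowest 97Q sum lay under the highest 25Q sum. Ube2d3, the most counted of the D enzymes, which act with a wide range of ligases, stood at 425.0, 429.5 and 230.3 CPM against 324.8, 237.9 and 191.4 CPM (0.47, SE 0.316).

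Ube2l3 was at 143.8, 188.1 and 290.1 CPM in 97Q vehicle and at 141.7, 42.5 and 161.5 CPM in 25Q vehicle (0.90, SE 0.424). Batch 1 showed almost no difference for it, and batch 2 the largest. Ube2d1 had 101.1, 165.5 and 18.5 CPM against 66.3, 29.1 and 21.0 CPM (1.20, SE 0.789), higher in 2 of 3 batches. Ube2d2a, a further D enzyme, had 43.98, 9.23 and 17.8 CPM against 27.2, 31.6 and 10.3 CPM, with the batches split in direction. Ube2w, which ubiquitinates the amino terminus of proteins, had 192.6, 395.5 and 267.3 CPM against 195.9, 220.7 and 251.9 CPM (0.24, SE 0.309).

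Members that build K48-linked chains, the signal for the proteasome, also had estimates above 0 in 4 of 4 genes (median 0.87), none at an unadjusted p under 0.05. Ube2k, also known as a huntingtin-interacting protein, stood at 158.5, 143.2 and 93.8 CPM in 97Q vehicle and at 109.6, 21.7 and 112.8 CPM in 25Q vehicle (0.93, SE 0.564). Its estimate rested on batch 2, where 1 cell gave 98.8% of the 25Q counts, and in batch 3 the order was reversed. Ube2r2, an E2 for cullin ligases, was higher in 3 of 3 batches, with 84.8, 111.7 and 29.05 CPM against 60.1, 32.5 and 14.6 CPM (1.00, SE 0.472). Ube2g1 had 212.5, 138.9 and 31.6 CPM against 129.6, 28.7 and 65.1 CPM, so its batches disagreed.

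The K63 group pointed the other way, with 0 of 3 estimates above 0 (median -0.36). Ube2n had 162.4, 112.5 and 180.9 CPM in 97Q vehicle and 137.6, 170.6 and 199.7 CPM in 25Q vehicle (-0.22, SE 0.366), a difference smaller than the spread between sums. Its partner Ube2v2 had 21.1, 139.2 and 66.7 CPM against 52.8, 88.01 and 98.8 CPM, again with overlap.

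The E2 enzymes of the ubiquitin relatives were above 0 in 4 of 4 estimates (median 0.69). Ube2f, a NEDD8 enzyme that serves cullin 5, was one of the members whose groups did not overlap: 94.2, 76.2 and 64.9 CPM in 97Q vehicle and 48.2, 32.9 and 45.6 CPM in 25Q vehicle (0.87, SE 0.398, unadjusted p = 0.0545 by edgeR). Ube2m, the other NEDD8 enzyme, had 37.5, 18.9 and 23.9 CPM against 19.0, 7.23 and 18.2 CPM (0.82, SE 0.731). Here 1 97Q sum lay just under the highest 25Q sum.

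Ube2l6, the ISG15 enzyme, which interferon induces, had 6.24, 9.58 and 27.1 CPM against 5.42, 5.35 and 16.4 CPM (0.56, SE 0.814). Other interferon genes, 12 of 14 listed, were tested beside it: 11 had estimates above 0 (median log2 difference 2.25) and 0 passed the adjusted threshold. Their median was 1.64 in batch 1, -0.14 in batch 2 and 2.11 in batch 3. Their part in the Ube2l6 value was not tested.

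Of the nuclear members, Ube2b had 367.5, 219.0 and 468.7 CPM in 97Q vehicle against 304.8, 277.9 and 425.5 CPM in 25Q vehicle (-0.03, SE 0.241), with no common direction over batches. Ube2a had 205.4, 118.6 and 117.5 CPM against 141.2, 33.9 and 145.3 CPM (0.69, SE 0.382), higher in 2 of 3 batches. Ube2t had 13.2, 6.58 and 3.33 CPM against 0.991, 0 and 2.45 CPM, with no overlap, a fitted log2 difference of 4.55 (SE 1.885) and an unadjusted p of 0.0378 by edgeR (adjusted p = 0.969, 0.0735 to 1.00 under the alternatives).

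Few cells carried Ube2t: 9 of 26 97Q vehicle neurons and 5 of 29 25Q vehicle neurons had a count. In batch 2 all its 97Q counts came from 1 cell, and without the richest cell of each sum the mean difference over batches went from 2.03 to 1.28 on the log2(CPM + 1) scale. The 4 tested markers of proliferating cells also had estimates above 0 (median 3.34, 1 at an unadjusted p under 0.05), their 8 listed genes summing to 140.2, 82.9 and 63.6 CPM in 97Q vehicle and 65.3, 19.9 and 65.5 CPM in 25Q vehicle. Their part in the Ube2t result was not tested. Ube2c, the mitotic member, had 14.4, 0 and 0.766 CPM against 4.07, 0.0540 and 2.34 CPM, and 98.7% of the counts in the highest of these sums came from 1 cell.

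Large or less typical members had estimates above 0 in 2 of 6 tested genes and below 0 in 4 (median -0.25). Those above 0, Ube2h and Ube2q2, did not overlap between groups. Ube2h, the E2 of the CTLH ligase, had 89.6, 76.7 and 86.0 CPM in 97Q vehicle and 69.4, 5.56 and 60.7 CPM in 25Q vehicle (0.99, SE 0.716). Most of its estimate came from the batch 2 sum of 25Q vehicle, 82.5% of which was 1 cell. Ube2q2 had 38.4, 31.3 and 14.8 CPM against 11.5, 8.96 and 12.8 CPM (1.20, SE 0.977). Together with Ube2e3, Ube2f and Ube2t they made 5 of 33 members (15.2%) whose 97Q sums all lay above the 25Q sums, where 3.78% of all genes did; 0 members lay wholly below, against 4.68%.

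Ube2ql1 was the only one lower in 97Q in 3 of 3 batches (1 of 33, background 13.2%). It had 10.5, 21.9 and 26.5 CPM in 97Q vehicle and 24.6, 93.7 and 43.4 CPM in 25Q vehicle (-1.65, SE 0.909, adjusted p = 0.969 by edgeR). The highest 97Q sum lay above the lowest 25Q sum. In the other direction 13 of 33 members (39.4%) were higher in 3 of 3 batches, against 15.8% of all genes. These shares describe the sums: members are not replicates, and no test was made over them.

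**Figure D2:**
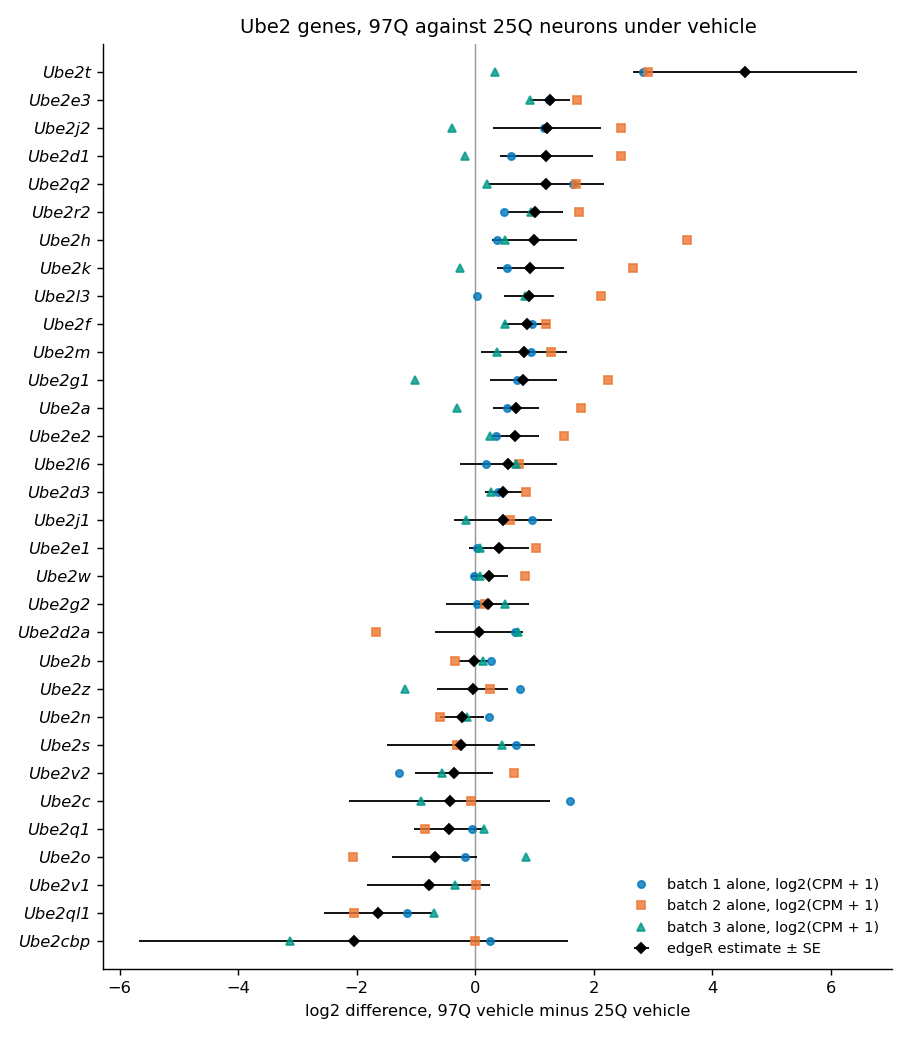
Log2 difference of 32 of the 33 tested Ube2 genes, 97Q vehicle minus 25Q vehicle: black diamonds are edgeR estimates with bars of 1 SE, and coloured symbols are the 3 batches taken alone on the log2(CPM + 1) scale. The 3 batches of Ube2e3 lie between 0.92 and 1.71, while for Ube2h and Ube2k batch 2 lies far from batches 1 and 3.

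Of 92 tested genes for ubiquitin and its relatives, E1 enzymes, E2-like proteins, E3 ligases and deubiquitinases, 61 had estimates above 0 and 31 below (median 0.24), 0 passed the adjusted threshold and 2 (2.17%) had an unadjusted p under 0.05, a share below the 3.96% of all genes. These were Uchl1, a neuronal deubiquitinase (437.5 against 783.4 CPM on average in 25Q and 97Q vehicle, log2 difference 0.92, SE 0.308), and Atg3, the E2-like enzyme that attaches lipid to LC3 (71.8 against 129.5 CPM, 1.37, SE 0.606). The polyubiquitin gene Ubb differed by 0.02. Markers of striatal GABAergic neurons were lower in 97Q vehicle in 9 of 9 tested genes (median -1.83, summed level 1297 to 1972 CPM against 3666 to 5447 CPM), 3 of them at an unadjusted p under 0.05. Their part in the E2 values was not tested.

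Summed over all 37 genes, the family took 3229, 3236 and 2473 CPM in 97Q vehicle sums and 2394, 1932 and 2271 CPM in 25Q vehicle sums, with no overlap. Endothelial and mural markers (7 genes) summed to 1625, 212.2 and 145.9 CPM in 97Q vehicle and 131.2, 151.0 and 48.2 CPM in 25Q vehicle. Of the 7 genes 4, 2 and 6 had a count in these 97Q sums and 6, 3 and 6 in these 25Q sums. Rgs5 was at 0 in all of these sums but 1, and Kdr and Pecam1 were at 0 in the 97Q sum of 1625 CPM. Only 1 of the 7 genes had a count in enough cells to be tested. In batch 2 oligodendrocyte lineage markers were at 315.3 against 21.1 CPM and astrocyte markers at 177.8 against 68.03 CPM, and the part of these markers in the family total was not tested. With RGFP109 the totals were 2956, 1824 and 2321 CPM in 97Q and 2919, 2507 and 2513 CPM in 25Q. Those groups overlapped with each other, and the 97Q RGFP109 sums overlapped with both vehicle groups. The 25Q RGFP109 sums, like the 97Q vehicle sums, all lay above the 25Q vehicle sums. Empty vector neurons had 2727 CPM in batch 3, above the 97Q vehicle (2473 CPM) and 25Q vehicle (2271 CPM) sums of that batch. A high total was thus not particular to 97Q. Astrocytes had 1519 CPM, the lowest of the 14 sums.

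**Figure D3:**
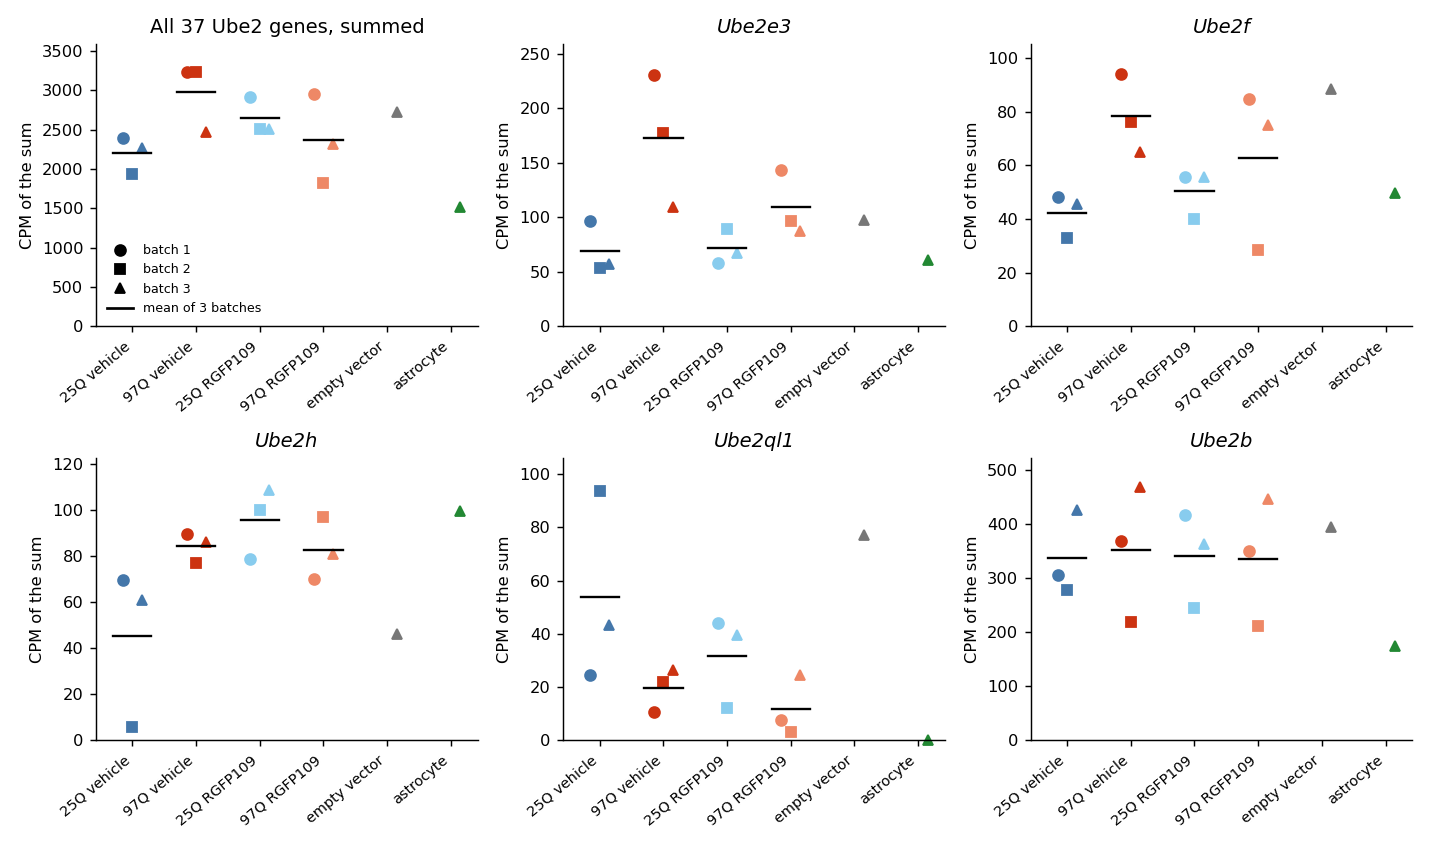
CPM of all Ube2 genes together and of Ube2e3, Ube2f, Ube2h, Ube2ql1 and Ube2b in the 14 sums by group, with shape for batch and a bar for the mean where there are 3 batches. For Ube2e3 the 3 97Q vehicle sums (109.7 to 231.1) lie above the 3 25Q vehicle sums (53.7 to 96.4), for Ube2b the groups coincide, and for Ube2ql1 the astrocyte sum lies at 0.0102.

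The second comparison asked what RGFP109 changed in 97Q neurons. It shares the 97Q vehicle sums with the first, so the values are given side by side and not as independent evidence. No member and no other gene passed the adjusted threshold (0 of 33, 0.0% of all genes), by limma-voom 0 members did (0.0%), and by DESeq2 0 members did, against 0.729% of all genes. Ube2t alone had an unadjusted p under 0.05 (0.0250 by edgeR, where 2.48% of all genes were at that level and 1.09% were lower). It was at 0.624, 0 and 1.64 CPM with RGFP109, below the 13.2, 6.58 and 3.33 CPM of vehicle (-5.07, SE 1.904), the only member without overlap (1 of 33, background 3.39%, with 0 higher, background 2.76%). The 4 tested markers of proliferating cells had estimates below 0 as well (median -4.26, 1 at an unadjusted p under 0.05), the 8 listed summing to 60.4, 41.4 and 46.3 CPM with RGFP109 and 140.2, 82.9 and 63.6 CPM with vehicle, and their part in the Ube2t value was not tested.

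Estimates were below 0 in 20 of 33 members, against 52% of all genes, and above 0 in 13, against 48% (median -0.22, against -0.04). Oligodendrocyte lineage markers were below 0 in 6 of 6 estimates (median -1.02) and pan-neuronal markers in 6 of 7 (-0.45). The 1 tested endothelial and mural marker was at -2.79 and the 1 tested microglial marker at 0.19. Astrocyte and striatal GABAergic markers were each above 0 in 5 of 9. The part of these markers in the E2 values was not tested. In 3 of 3 batches 8 members were lower with RGFP109 (background 14.1%), among them Ube2e3 (-0.53, SE 0.338) and Ube2j1, and 2 were higher (background 9.64%), Ube2l6 and Ube2o. Ube2j1, an E2 of the endoplasmic reticulum that serves the disposal of misfolded proteins, had 50.0, 1.39 and 36.03 CPM with RGFP109 and 156.3, 93.1 and 44.05 CPM with vehicle (-2.01, SE 0.902, unadjusted p = 0.0518 by edgeR). The highest RGFP109 sum lay above the lowest vehicle sum, and batch 3 differed little. Ube2o, a large E2 that also acts as a ligase for orphan ribosomal proteins, had 62.7, 19.7 and 56.9 CPM with RGFP109 and 38.1, 12.5 and 21.1 CPM with vehicle.

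In 25Q neurons the inhibitor likewise moved no member past the threshold by edgeR (0 of 33, 0.0% of all genes), by limma-voom (0, 0.0%) or by DESeq2 (0, 0.948% of all genes), and no member had an unadjusted p under 0.05, against 2.52% of all genes (1.12% higher and 1.4% lower). Estimates were above 0 in 25 of 33 members, against 50.1%, and below 0 in 8, against 49.9% (median 0.28, against 0.00). In 3 of 3 batches 12 were higher, against 12.3%, and 0 lower, against 13.8%. The 25Q vehicle sums are those of the first comparison, so its upward lean and this one are not independent evidence. Astrocyte markers were above 0 in 7 of 9 estimates (median 0.97, summed level 267.8, 475.1 and 316.8 CPM with RGFP109 and 431.5, 68.03 and 176.6 CPM with vehicle). Proliferating-cell markers were above 0 in 4 of 4 (median 1.10), and striatal GABAergic markers were below 0 in 6 of 9 (median -1.32). The part of these markers in the E2 values was not tested. Ube2m had 62.1, 50.8 and 18.6 CPM with RGFP109 and 19.0, 7.23 and 18.2 CPM with vehicle (1.64, SE 0.764, unadjusted p = 0.0590 by edgeR). Batches 1 and 2 carried that difference, and batch 3 showed almost none. Ube2h was the member without overlap (1 of 33 higher, background 2.89%, with 0 lower, background 3.84%). It had 78.5, 100.0 and 108.4 CPM against 69.4, 5.56 and 60.7 CPM (1.24, SE 0.726). Batch 2 gave most of that difference, through the same 25Q vehicle sum as in the first comparison, which came mainly from a single cell.

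With RGFP109 in both arms, 97Q against 25Q gave 0 of 33 members past the threshold by edgeR (0.0% of all genes), 0 by limma-voom (0.0199%) and 0 by DESeq2 (1.84%), and no member had an unadjusted p under 0.05 (background 3.74%, 1.9% higher and 1.84% lower). The median was -0.07, against 0.00 over all genes, and 14 of 33 estimates were above 0 (background 50.1%) and 19 below (background 49.9%). In 3 of 3 batches 3 of 33 members were higher in 97Q (background 13.3%), among them Ube2e3 (0.62, SE 0.340) and Ube2q1. Ube2ql1 was lower in 3 of 3 batches, with 7.52, 2.94 and 24.6 CPM against 43.9, 12.1 and 39.4 CPM (-1.73, SE 0.917), as were 5 other members (6 of 33, background 13.4%). Only Ube2z, which is charged by the alternative E1 Uba6, did not overlap (1 of 33, background 3.58%, with 0 higher, background 3.6%): 29.4, 18.8 and 35.9 CPM in 97Q and 45.2, 41.5 and 40.01 CPM in 25Q (-0.55, SE 0.591).

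The interaction, which tests whether the inhibitor acted differently in 97Q and 25Q neurons, passed the threshold for no member by edgeR, DESeq2 or limma-voom, where 0.0%, 0.464% and 0.0% of all genes did. Of the estimates 26 of 33 were below 0, against 51.6% of all genes (median -0.59, against -0.04). The interaction reuses the sums of the comparisons above, so this lean is not independent of theirs. Ube2t had an estimate of -6.71 (SE 2.567, unadjusted p = 0.0272 by edgeR), Ube2m -1.86 (SE 1.063) and Ube2e3 -0.64 (SE 0.478). For Ube2e3 the difference between the inhibitor's effects was thus not shown, and its estimate in batch 1 was 0.03.

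The last comparison set astrocytes beside neurons, in batch 3 alone. With 1 sum per group there is no replicate and no test. A ratio of sums does not by itself tell fewer cells with a gene from less of it per cell. For some members the cells with a count are therefore given. A member is named where the 2 sums differed at least 4-fold with at least 10 CPM in one of them. On that rule 10 of 33 tested members were lower in astrocytes than in empty vector neurons (30.3%, against 16.4% of all genes tested) and 0 were higher (against 10.5%). The median log2 ratio was -1.18 over the 29 tested members with at least 10 CPM in either sum and -0.40 over all 10853 such genes.

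Ube2ql1 showed the widest gap. Its counts were 3293 in 9 empty vector neurons (76.99 CPM) and 1 in 14 astrocytes (0.0102 CPM), a ratio of 7581 with a 95% counting interval of 1360 to 299507 (exact, from the binomial share). A count was present in 9 of 9 empty vector neurons, in 80 of 113 neurons of all groups (70.8%, exact 95% interval 61.5 to 78.97) and in 1 of 14 astrocytes (7.14%, 0.181 to 33.9). Presence means at least 1 count, which can be a very low level. In empty vector neurons 2 and 3 Ube2ql1 stood at 0.525 and 0.366 CPM, and in the others at 11.2 to 258.8 CPM. In 25Q vehicle neuron 26 it stood at 0.222 CPM. In the 4 transgene groups of batch 3 the sums of Ube2ql1 lay at 24.6 to 43.4 CPM, so every neuron sum was far above the astrocytes. Intervals here cover counting error only, since PCR copies were counted as separate reads.

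The D enzymes were the next group. Ube2d2a had 42.1 CPM in empty vector neurons and 1.95 CPM in astrocytes (21.6-fold lower), Ube2d1 77.9 and 6.65 CPM (11.7-fold) and Ube2d3 361.1 and 56.4 CPM (6.40-fold). Ube2v2, the partner of Ube2n, had 79.1 and 8.37 CPM (9.46-fold). All of these lay below each of the 5 neuron sums of batch 3, although the transgene groups came closer for Ube2d1 (lowest 8.27 CPM) and Ube2d2a (lowest 10.3 CPM).

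Smaller gaps held for Ube2o (50.6 and 10.2 CPM), Ube2g1 (110.4 and 24.7 CPM), Ube2j2 (10.6 and 2.43 CPM) and Ube2q2 (30.3 and 7.04 CPM). The lowest neuron sum of batch 3 came close to the astrocytes for Ube2o (11.2 CPM), Ube2j2 (2.60 CPM) and Ube2g1 (31.6 CPM). Ube2c met the rule through 1 cell: 99.5% of its 842 empty vector counts came from a neuron rich in glial RNA, and without that neuron its log2 ratio went from -8.60 to -1.01. Ube2j2 lost its place with the same neuron (from -2.13 to -1.35). Under a TMM scaling over the 14 sums every ratio rose by 0.35 and 6 members met the rule, Ube2c, Ube2d1, Ube2d2a, Ube2d3, Ube2ql1 and Ube2v2.

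In the other direction Ube2l6 stood just outside the rule, with 62.95 CPM in astrocytes and 15.8 CPM in empty vector neurons (3.98-fold), and inside it under TMM, with cells weighted equally or without the glial-rich neuron (log2 ratios 2.34, 2.18 and 2.05). At least 1 count was present in 13 of 14 astrocytes and 61 of 113 neurons. Some of these cells held very little Ube2l6, such as 0.134 CPM in astrocyte 1 and 0.263 CPM in empty vector neuron 2. The sum of the 14 interferon genes was 402.9 CPM in astrocytes and 122.6 CPM in empty vector neurons. Of 33 members 3 lay above all 5 neuron sums of batch 3 (background 21.6%), Ube2e1, Ube2l6 and Ube2r2, and 19 below (background 39%). Ube2l3 had 264.5 against 140.0 CPM and Ube2h 99.5 against 46.2 CPM, both within the range of the neuron sums.

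Of the high-level members, Ube2b had 173.9 CPM and Ube2w 149.0 CPM in astrocytes, against 394.8 and 172.0 CPM in empty vector neurons. Ube2a stood at 98.6 against 133.8 CPM, Ube2n at 68.9 against 219.6 CPM, Ube2k at 45.3 against 138.4 CPM and Ube2m at 18.2 against 18.3 CPM. All of these lay below each of the 5 neuron sums of batch 3, Ube2m by very little (lowest neuron sum 18.24 CPM). Ube2e3, at 60.6 against 97.4 CPM, lay within the range of the neuron sums of batch 3. The endothelial and mural marker list (7 genes) summed to 3674 CPM in the astrocytes and 111.7 CPM in the empty vector neurons, with Cldn5, Flt1, Pecam1 and Rgs5 at 0 in the astrocytes, and its part in these differences was not tested.

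Ube2u, which was not tested because few neurons held it, had 1246 counts in astrocytes (12.7 CPM) and 0 in empty vector neurons. Against the floor of 3 counts in that sum (0.0701 CPM) it was at least 180.4-fold higher. A count was present in 9 of 14 astrocytes (64.3%, exact 95% interval 35.1 to 87.2) and 5 of 113 neurons (4.42%, 1.45 to 10.0). A single astrocyte gave 66.7% of the counts, and the median astrocyte had 0.132 CPM. In neurons the highest cell, in 25Q vehicle, had 50.9 CPM.

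**Figure D4:**
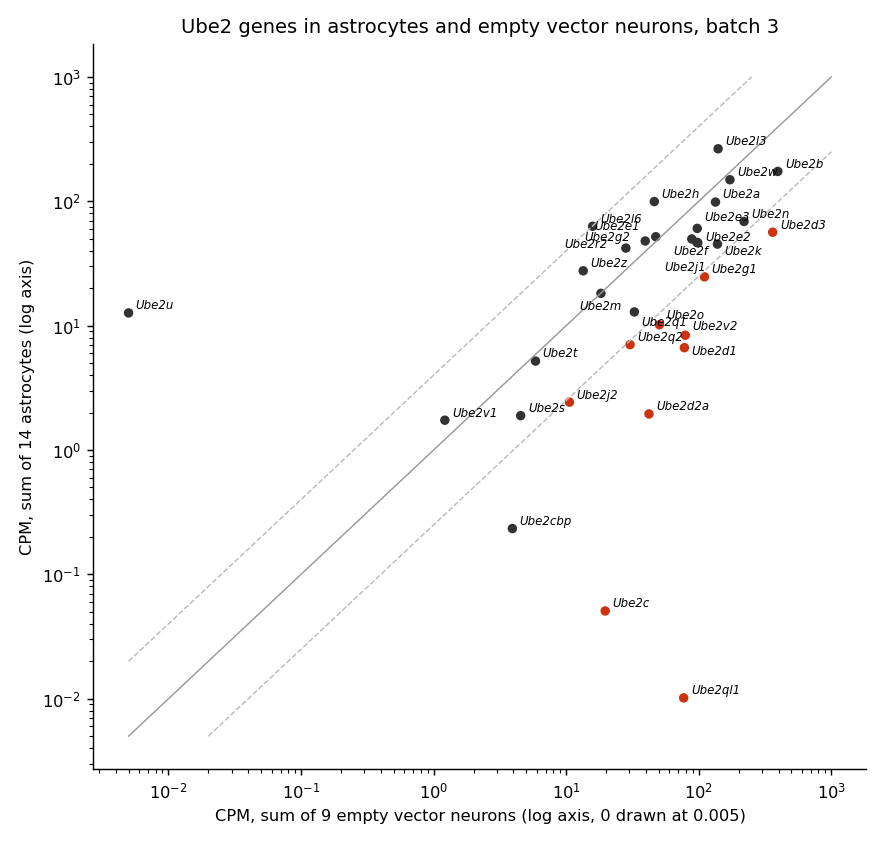
CPM of 32 of the 33 tested Ube2 genes and Ube2u in the sum of 14 astrocytes against the sum of 9 empty vector neurons of batch 3 (log axes, a value of 0 drawn at 0.005). The solid line marks equal levels, dashed lines a 4-fold difference, and red points the 10 members at least 4-fold lower in astrocytes with 10 CPM in one sum; Ube2ql1 lies farthest below and Ube2u farthest above the line.

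The starts of the genes with the widest contrast between cell types differ in composition. Given here are the 250 bases upstream of the RefSeq start on GRCm38.p6, each 5′ to 3′ on the gene's strand, with the dinucleotide CG in capitals.
Ube2ql1, chr13:69739898-69740147, minus strand: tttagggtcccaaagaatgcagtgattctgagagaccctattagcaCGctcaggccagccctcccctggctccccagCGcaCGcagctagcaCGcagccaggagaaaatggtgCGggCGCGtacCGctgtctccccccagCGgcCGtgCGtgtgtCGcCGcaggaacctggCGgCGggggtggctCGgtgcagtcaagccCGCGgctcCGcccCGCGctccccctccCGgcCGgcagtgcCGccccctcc
Ube2u, chr4:100478617-100478866, plus strand: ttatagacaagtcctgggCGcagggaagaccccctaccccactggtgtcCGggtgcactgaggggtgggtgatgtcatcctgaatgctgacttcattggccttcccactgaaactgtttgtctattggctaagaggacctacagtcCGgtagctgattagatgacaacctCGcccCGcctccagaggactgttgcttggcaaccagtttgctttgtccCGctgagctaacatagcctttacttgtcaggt
The Ube2ql1 stretch held 24 CG and the Ube2u stretch 6. Over 32851 RefSeq promoter stretches of the same length the median was 6 (quartiles 2 and 16, at least 1 in 92.1%), and over the 41 stretches of the 30 members matched by symbol it was 23 (quartiles 15 and 32). CG reads the same on both strands, and methylation was not measured.

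**Figure D5:**
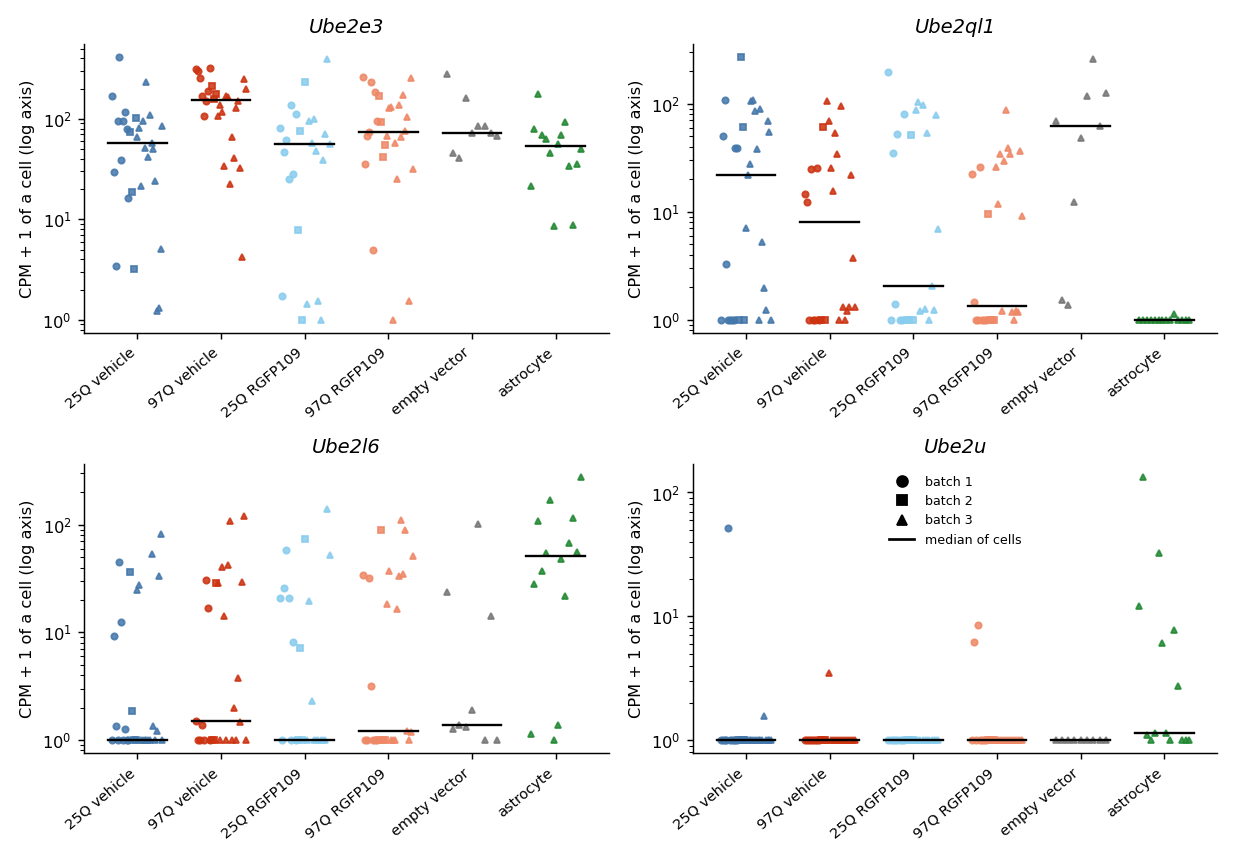
CPM + 1 (log axis) of Ube2e3, Ube2ql1, Ube2l6 and Ube2u in each of the 127 cells by group, with shape for batch and a bar for the median of the cells. Ube2e3 is found in nearly every cell, with the highest median in 97Q vehicle (153.6 CPM). Ube2ql1 has at least 1 count in 80 of 113 neurons and 1 of 14 astrocytes, and Ube2u is found mainly in astrocytes.

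Members varied widely from cell to cell and largely apart from each other. Across the 113 neurons the median Spearman correlation of CPM over the 528 pairs of tested members was 0.08. The highest was 0.53 between Ube2d1 and Ube2d3 (0.36 in the 34 neurons of batch 1, 0.74 in the 15 of batch 2 and 0.35 in the 64 of batch 3), then 0.47 between Ube2d1 and Ube2d2a (0.56, 0.16 and 0.44). Ube2g1 went with Ube2d1 at 0.46 (0.46, 0.54 and 0.24). These cells share batch, chemistry and a common range of depth, and the CPM of Ube2d1, Ube2d2a, Ube2d3 and Ube2g1 also correlated with the number of genes detected per cell (0.28, 0.31, 0.32 and 0.36), so the values are a description only.

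Some member counts are uncertain because their exons overlap another annotated gene or share sequence with one. Exons of Ube2v1 overlap those of the readthrough gene Gm20431 over 69.1% of their length, and 63.5% of its 50-base words occur in other genes, Gm20431 sharing the most, so its low level cannot be read as low expression. The overlap is 28.6% for Ube2l3 (with Ydjc), 22.8% for Ube2c (with Tnnc2) and 16.1% for Ube2e1 (with Nkiras1). Ube2h shares 44.2% of its words with other genes, most with Gm26526, and Ube2q2 shares 16.4%, most with Gm4895.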

How the data were processed

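RNA of 127 cells was made into cDNA with SMARTer chemistry and into libraries with Nextera XT, per the labels' protocols. The deposited values are raw read counts per Ensembl gene and cell, and FastQC, Trimmomatic 0.36, STAR 2.5 and HTSeq 0.9.1 are named, with both GRCm38 and mm10 as builds, in the submitters' processing notes; strand setting and annotation release: not given in the sources used here. Symbols, biotypes and exon lengths came from GENCODE M21 (53360 of 53465 identifiers matched). A cell had 999700 to 9263305 counts (median 4440040).

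The members and gene lists were chosen with earlier results of these data known. Counts of a group's cells within a batch were summed. Genes that passed edgeR's filterByExpr on the sums and had a count in at least 20% of all transgene cells were tested (15091) with edgeR 4.0.16 (TMM, robust quasi-likelihood, group and batch as terms, 6 residual degrees of freedom, common biological coefficient of variation 0.928) in R 4.3.3, with Benjamini-Hochberg adjustment over all genes at 0.05. Batch served as the block: residuals of sums sharing a batch correlated at 0.107 to 0.298 and those of different batches at -0.193 to 0.021. Alternatives were DESeq2 1.42.0, limma 3.58.1 (voom), RLE factors, a low filter, no block, each batch left out, no glial-rich neurons and equal weight per cell. The test was also run on counts simulated from a fit to these data. The outcome is not given here, so it says nothing about what the test can find. Some members were chosen by rule to have values given. These were the 6 highest members per length, members with an unadjusted p under 0.05 by edgeR, and those past the 4-fold rule between astrocytes and neurons. Ube2k, Ube2m, Ube2n, Ube2l3, Ube2l6, Ube2c and Ube2e3 were chosen for their roles. Their values are printed for some of the sums, not for all. Other members were named after their values were seen. Some genes enter the counts and medians but are not reported here singly. Human HTT and GFP are not analysed here.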

Additional observations from a re-analysis of the deposited data

Results flagged for a closer look

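Among the 9 empty vector neurons, 9 of 20 members tested had 1 cell set apart from the others by Dixon's test. Its chance rate of about 1 in 20 holds for normally distributed values. Single-cell CPM with many values at or near 0 are not, so the number marked cannot be read against that rate. In 4 of the 9 it was empty vector cell 1, a neuron rich in glial RNA (1306 CPM over the astrocyte markers): Ube2c stood at 235 CPM there (next highest 0.466), Ube2t at 70.3 CPM (all others 0), Ube2e3 at 281 CPM (next 162) and Ube2j2 at 58.8 CPM (next 27.3). Other cells were high for Ube2b at 801 CPM (next 412), Ube2l6 at 99.8 CPM (next 22.7) and Ube2ql1 at 259 CPM (next 124). The lowest cell stood apart for Ube2w at 1.05 CPM (next 138) and Ube2k at 31.6 CPM (next 129).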

How the results depend on the processing

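The count of members past the threshold for 97Q against 25Q under vehicle was 0 in the reported fit and 1 by DESeq2 (Ube2e3, adjusted p = 0.0387). Without the replicate block the members' median there was 0.56, Ube2e3 was 1.28 (adjusted p = 1.00 by edgeR) and 0 members passed. Leaving out each batch moved the median for 97Q against 25Q under RGFP109 between -0.156 and -0.00489. Under TMM 6 members, not 10, were at least 4-fold lower in astrocytes. Of 290 values of 29 gene results under alternatives, 284 kept direction and side of the threshold, 1 passed it, and 5 changed sign, all near 0 and under vehicle. Leaving out each batch gave -0.494 to 0.0554 for Ube2n (positive without batch 2) and -0.218 to 0.216 for Ube2b (positive without batch 2). Ube2b was 0.103 by limma-voom, 0.0283 without the block and 0.0727 with cells weighted equally. The cause was not tested. Batch 2 sums rest on few cells. Omitting the richest cell per sum and the principal-transcript lengths were added after seeing the data.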
